A study of Mus musculus with 6 samples.

Results

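Dual-specificity phosphatases and Spred1, a relative of the Sprouty proteins, were followed in naive CD8 T cells of high and low Nur77-GFP fluorescence. The members were chosen by gene symbol from a list of 10 names: Dusp1, Dusp2, Dusp4, Dusp5, Dusp6, Dusp10, Dusp11, Spry1, Spry2 and Spred1. Of these, 8 were found among the 11162 genes with values, and all 8 were among the 9351 genes that passed the filter on low values, which asked for a mean of 1 RPKM or more. RPKM is a read count divided by gene length and by library size, so levels of different genes can be set side by side. Spry1 and Spry2 were not analysed here.

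The cells came from the spleen of mice with the transgene Tg(Nr4a1-EGFP)GY139Gsat, a reporter that makes green fluorescent protein under Nr4a1 (Nur77) regulatory sequence, and they carried OT-I, a transgenic T-cell receptor. Both populations had been sorted as CD8+ cells with low CD44, high CD62L and high Qa2, and differed in the GFP gate: GFP-hi or GFP-lo, with 3 libraries each. All cells carried the reporter and OT-I, so that no group lacked them. Nr4a1 RNA itself did not separate the gates, at 56.6, 90.9 and 37.0 RPKM in the GFP-hi libraries and 63.1, 84.9 and 33.8 RPKM in the GFP-lo libraries (limma, adjusted p = 0.98). Age, sex, strain background and pooling of mice were not stated in the labels, and nothing said that the 3 libraries of a group came from separate animals. P-values therefore measure the spread between these libraries, which may in part be technical. In such bulk samples, fewer expressing cells and less RNA per cell cannot be told apart.

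MAP kinases (ERK, JNK and p38) carry signals from the T-cell receptor to the nucleus and are active only while a threonine and a tyrosine in their activation loop are both phosphorylated. Dual-specificity phosphatases of the MAP kinase phosphatase class remove both phosphates, and many of their genes are themselves switched on by MAP kinase signalling, which makes them feedback brakes. Sprouty and Spred proteins act further upstream, between receptors, Ras and Raf. In T cells such brakes are known to set how strongly and how long ERK responds to a receptor signal.

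Recovered depths ran from 26170000 to 35940000 reads per library, so that 1 RPKM of a 1-kilobase transcript stood for about 26 to 36 reads. Naive CD8 T cell markers were high in each library, with a summed RPKM of 3153 to 3557 over 11 genes led by Cd8b1 and Klf2. Marker lists of other cells, of 6 genes each, were summed over the genes found. Of the 6, 4 were not analysed in the myeloid, erythroid and CD4 and regulatory T cell lists. The B cell list lacked 3 and the thymocyte list 2, so the sums cover only part of each list. B cell markers had 11 to 14.2 RPKM, nearly all Cd79b, and myeloid markers 1.34 to 2.50 RPKM, led by Cd68. Erythroid markers had 2.38 to 5.74 RPKM, led by Car2, and thymocyte markers, led by Themis and Cd1d1, 54.0 to 58.8 RPKM. The CD4 and regulatory T cell list had 15.8 to 48.2 RPKM in all, from Cd40lg and Ctla4. Cd40lg was lower in GFP-hi (SD, n = 3 each: 17.8 ± 4.41 against 39.7 ± 6.20 RPKM; adjusted p = 0.011 by limma). Ctla4 had a mean of 2.54 ± 0.790 against 1.42 ± 0.393 RPKM in the opposite direction, without passing (SD, n = 3 each; adjusted p = 0.16 by limma). Car2 was higher in GFP-hi (SD, n = 3 each: 4.19 ± 0.368 against 2.13 ± 0.183 RPKM, adjusted p = 0.0036 by limma). Hba-a1, the other erythroid gene with values, lay below the filter and was not higher, at 0.701 ± 1.07 against 0.787 ± 0.605 RPKM (SD, n = 3 each). Whether other cells had a part in the values below was not tested. A pair of libraries, GFP-hi 2 and GFP-lo 2, stood apart in a list of dissociation and heat-shock genes, here called the handling list. The name is only that of the list, and the cause of the split was not tested. Also on it were Nr4a1, whose regulatory sequence drives the reporter, and Fos, Jun and Egr1. The list summed to 8422 and 9434 RPKM there and to 4055 to 5180 RPKM in the other 4.

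The promoters of Dusp1, Dusp2 and Dusp5 are shown because the RNA of these 3 genes followed different courses over the 6 libraries, as described below. Each stretch runs from base -250 to base -51 before the RefSeq start of the gene in GRCm38.p6, 5′ to 3′ on the gene's strand. Capitals mark matches to motifs searched on both strands. The Dusp1 stretch lies on the minus strand at chr17:26508523-26508722, the Dusp2 stretch on the plus strand at chr2:127335909-127336108 and the Dusp5 stretch on the plus strand at chr19:53528895-53529094.
Dusp1: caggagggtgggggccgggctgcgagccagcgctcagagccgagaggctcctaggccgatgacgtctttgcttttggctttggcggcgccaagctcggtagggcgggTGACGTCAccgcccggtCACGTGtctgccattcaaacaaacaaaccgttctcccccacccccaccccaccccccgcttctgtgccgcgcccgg
Dusp2: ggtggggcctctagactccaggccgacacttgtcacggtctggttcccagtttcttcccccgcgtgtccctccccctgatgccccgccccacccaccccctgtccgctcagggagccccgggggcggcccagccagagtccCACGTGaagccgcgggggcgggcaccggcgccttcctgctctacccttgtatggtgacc
Dusp5: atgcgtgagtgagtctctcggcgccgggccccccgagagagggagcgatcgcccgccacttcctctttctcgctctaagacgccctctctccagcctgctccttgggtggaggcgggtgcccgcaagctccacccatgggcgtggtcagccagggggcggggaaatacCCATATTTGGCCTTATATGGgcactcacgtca
The Dusp1 stretch held the cAMP response element TGACGTCA and the E-box CACGTG. The Dusp2 stretch held the E-box CACGTG. In the Dusp5 stretch a pair of CArG boxes, the binding motif of serum response factor, stood side by side, CCATATTTGG and CCTTATATGG. Among 32851 promoter stretches of the same length and place, 0.828% held the cAMP response element, 1.16% a CArG box and 4.34% the E-box. The stretches of 7 of the 8 genes could be searched, and those of Dusp6, Dusp10, Dusp11 and Spred1 held no match to any motif. The AP-1 motifs TGACTCA and TGAGTCA (3.61% of stretches) and the EGR motif GCGTGGGCG (0.353%) were found in none of these 7. No motif match overlapped another. These matches describe the sequence and do not show that a factor binds. Whether they bear on the courses of the RNA over the libraries was not tested.

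The genes differed widely in level. Dusp2 and Dusp1 were the most abundant, with a mean of 160 and 144 RPKM over the 6 libraries, above 99.1% and 98.9% of the genes with values. Together they made up 73.1% to 78.2% of the summed RPKM of the 8 genes in each library. Dusp10 followed at 34.3 RPKM, then Dusp11, Dusp5 and Dusp6 at 20.6, 19.9 and 19.4 RPKM, Spred1 at 2.59 RPKM and Dusp4 at 1.16 RPKM. Neighbours in this order were not always apart. Dusp2 exceeded Dusp1 in 4 of 6 libraries, Dusp11 exceeded Dusp5 in 2 of 6 and Dusp5 exceeded Dusp6 in 4 of 6. The steps from Dusp1 to Dusp10, Dusp10 to Dusp11, Dusp6 to Spred1 and Spred1 to Dusp4 held in 6 of 6.

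**Figure D1:**
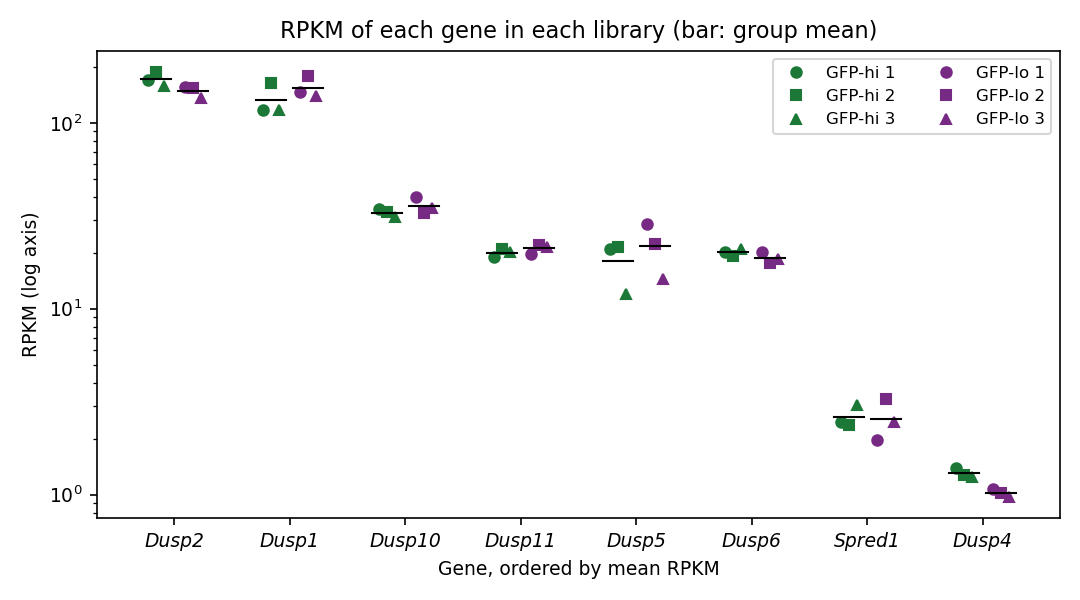
RPKM of each of the 8 genes in each library on a log axis, with GFP-hi in green, GFP-lo in purple and a bar at each group mean. Levels span from about 1 RPKM for Dusp4 to over 100 RPKM for Dusp1 and Dusp2, and the groups lie fully apart for Dusp2 and Dusp4.

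The comparison of GFP-hi with GFP-lo asked whether cells with a brighter reporter carried other levels of these brakes. None of the 8 genes passed the test (limma on log2(RPKM + 1), Benjamini-Hochberg adjusted p from 0.20 to 0.92), against 3.95% of all 9351 genes tested (2.46% were called higher and 1.49% lower). The split of all calls, 230 higher and 139 lower, was 169 and 168 with trimmed mean scaling, 220 and 175 with quantile normalization and 52 and 49 without GFP-hi 2 and GFP-lo 2. Without adjustment, 2 of 8 (Dusp2 and Dusp4) had a p under 0.05, against 20.2% of all genes. The same 2 genes had groups that did not overlap, with GFP-hi above GFP-lo. Of all genes 26.9% did not overlap, 17.1% with GFP-hi above and 9.84% with GFP-hi below, so that the share among the 8 was near the background. Differences are given as the log2 difference, the GFP-hi mean of log2(RPKM + 1) less the GFP-lo mean. Of the 8 log2 differences 4 were positive and 4 negative, with a median of -0.02, against 0.02 over all genes tested. Taken without sign, the median was 0.15, against 0.09 over all genes tested. No test was made of the set as a whole.

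**Figure D2:**
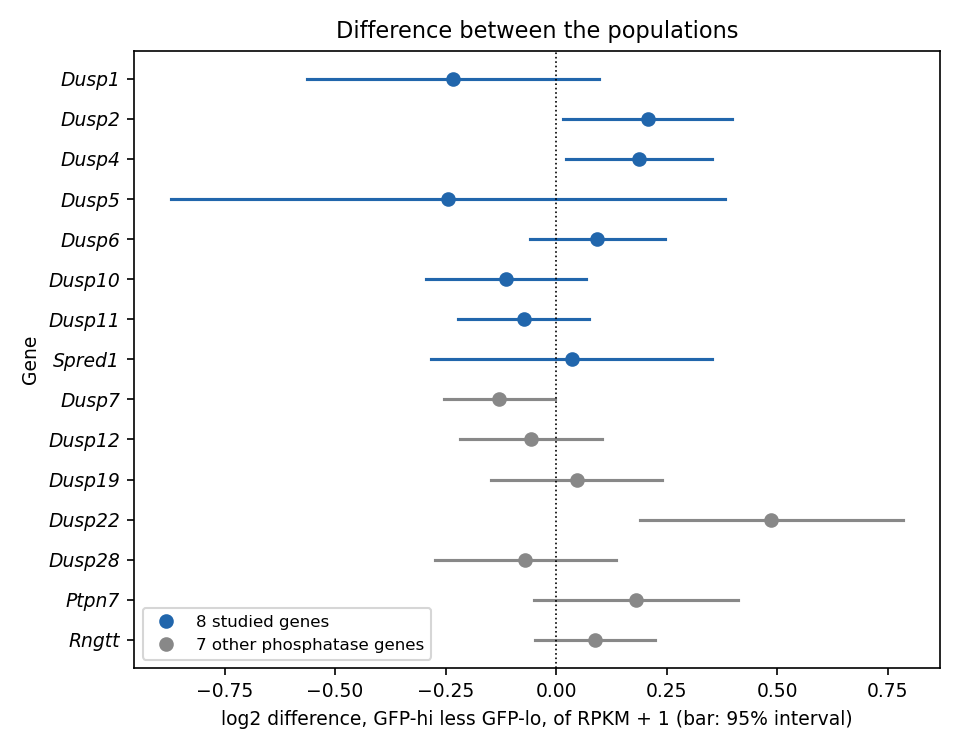
Log2 difference, GFP-hi less GFP-lo, of RPKM + 1, with its 95% interval from limma (3 libraries each), for the 8 genes in blue and 7 other phosphatase genes in grey. The intervals of Dusp2 and Dusp4 lie just above 0 and that of Dusp5 is the widest of the 15 drawn, from -0.87 to 0.38; no gene drawn passed the adjusted threshold.

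Among the nuclear phosphatases, Dusp2 (Entrez 13537, chr2:127336159-127338377), also called PAC1, was first described in activated T cells and acts on ERK. It had 170, 188 and 157 RPKM in the GFP-hi libraries and 155, 155 and 135 RPKM in the GFP-lo libraries. Each GFP-hi library lay above each GFP-lo library, by a narrow margin at the nearest pair. Group means were 172 ± 15.2 and 148 ± 11.4 RPKM (SD, n = 3 each), a difference of 15.6%. The log2 difference was 0.21 (standard error, SE, 0.083; 95% interval 0.015 to 0.40; adjusted p = 0.22 by limma). It was positive in all 16 alternative fits, from 0.13 to 0.27, and passed in none; without GFP-hi 2 and GFP-lo 2 it was 0.17 (adjusted p = 0.40).

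Dusp1 (Entrez 19252, chr17:26505591-26508472) encodes an immediate early nuclear phosphatase that inactivates p38, JNK and ERK. It stood at 117, 164 and 117 RPKM in GFP-hi and at 147, 178 and 139 RPKM in GFP-lo. GFP-hi 2 and GFP-lo 2 were the highest, and the groups overlapped because GFP-hi 2 lay above GFP-lo 1 and GFP-lo 3. Group means were 132 ± 26.9 and 155 ± 20.4 RPKM (SD, n = 3 each), with a log2 difference of -0.23 (SE 0.14; 95% interval -0.56 to 0.10; adjusted p = 0.42 by limma). The difference was negative in all 16 alternative fits and passed in 1 of them, with array quality weights (-0.40, adjusted p = 0.036).

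The libraries in which Dusp1 was high were those in which the handling list was high. The mean of log2(RPKM + 1) over the 25 tested handling genes, less its mean over libraries, was -0.44, 0.44 and -0.36 in GFP-hi and -0.12, 0.59 and -0.11 in GFP-lo. For Dusp1 the same quantity was -0.28, 0.20 and -0.28 in GFP-hi and 0.05, 0.32 and -0.03 in GFP-lo. Of the 25 handling genes, 18 were higher in both GFP-hi 2 and GFP-lo 2 than in the other 4 libraries, and 20 had a negative log2 difference. Dusp1 had a log2 difference of -0.29 without these 2 libraries (adjusted p = 0.099) and of -0.11 with the handling list as a covariate (adjusted p = 0.21). The list includes Nr4a1, Fos and Egr1, and its mean was lower in GFP-hi 1 and GFP-hi 3 than in any GFP-lo library. The covariate fit therefore cannot tell handling from signalling or from the gate. The part of handling in the Dusp1 values was not tested.

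**Figure D3:**
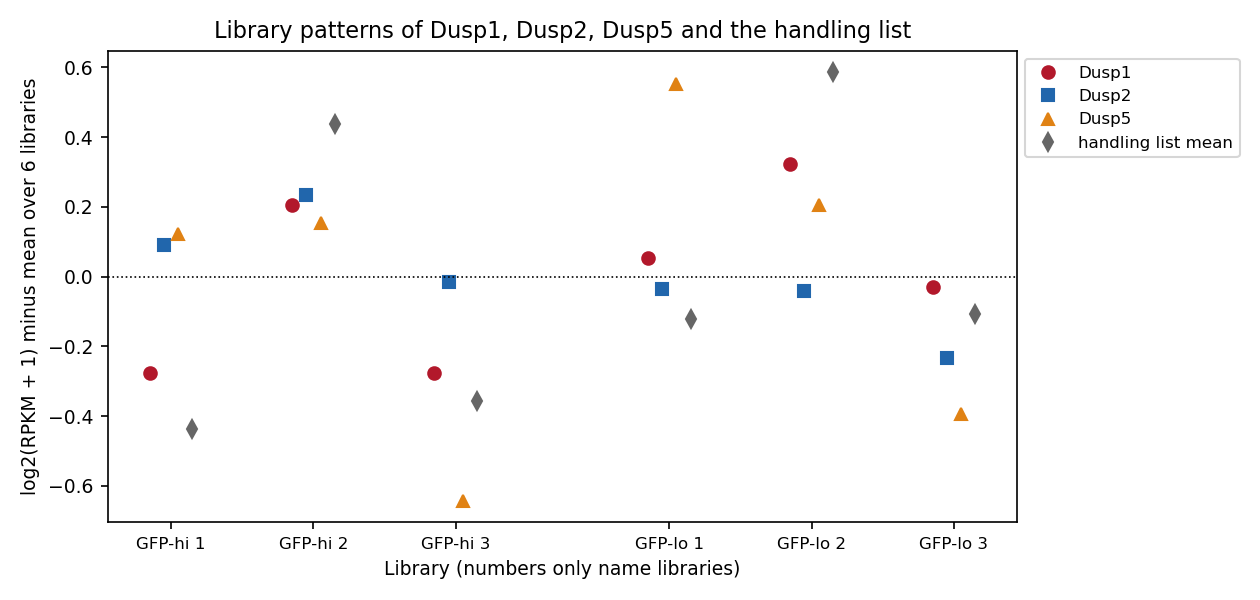
Log2(RPKM + 1) of Dusp1, Dusp2 and Dusp5, and the mean over 25 handling genes, in each library, each less its own mean over the 6 libraries. Dusp1 and the handling list are highest in GFP-hi 2 and GFP-lo 2, Dusp5 is lowest in GFP-hi 3 and GFP-lo 3, and Dusp2 is higher in each GFP-hi than in each GFP-lo library.

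Dusp2 and Dusp1 had log2 differences of opposite sign, and their ratio within a library does not depend on how the library was scaled. Dusp2 stood at 1.45, 1.15 and 1.35 times Dusp1 in the GFP-hi libraries and at 1.05, 0.870 and 0.973 times Dusp1 in the GFP-lo libraries. The ratio was thus above 1 in 3 of 3 GFP-hi and in 1 of 3 GFP-lo libraries, with means of 1.31 ± 0.154 and 0.966 ± 0.0925 (SD, n = 3 each) and without overlap. A two-sided exact permutation test gave p = 0.1, the smallest that 3 against 3 libraries allow (adjusted p = 0.4 over the 28 pairs). Any ratio without overlap takes this value, so the test adds nothing to the lack of overlap. Ratios of all 28 pairs of the 8 genes were formed, and 7 did not overlap between the groups. All of these but the pair of Dusp10 and Dusp6 contained Dusp2 or Dusp4, the genes with separate groups when taken singly. Ratios of other genes were not formed, so no background share stands beside these 7. Among single genes tested, 26.9% did not overlap, but that share is not a background for ratios. Pairs share genes, and the pair of Dusp2 and Dusp1 was singled out after its values were seen.

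Dusp5 (Entrez 240672, chr19:53529145-53541809) encodes a nuclear phosphatase specific to ERK, which it can also hold in the nucleus. It stood at 21.0, 21.5 and 11.9 RPKM in GFP-hi and at 28.6, 22.3 and 14.4 RPKM in GFP-lo. GFP-hi 3 and GFP-lo 3 were the lowest and GFP-lo 1 the highest, and the groups overlapped. Group means were 18.1 ± 5.37 and 21.8 ± 7.14 RPKM (SD, n = 3 each), with a log2 difference of -0.24 (SE 0.27; 95% interval -0.87 to 0.38; adjusted p = 0.68 by limma). The difference was 0.02 without GFP-hi 3 and -0.50 without GFP-lo 3. The numbers of the libraries come from record order, and whether GFP-hi and GFP-lo libraries belong together in pairs is not known.

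The spread of Dusp5 within the groups was the largest of the 8 genes. Taken over log2(RPKM + 1), its SD within groups was 0.47, more than in 99.1% of tested genes (median 0.09). From its single annotated transcript, Dusp5 rested on about 869 to 2544 reads per library, for which counting alone gives an error of 1.98% to 3.39%, against an SD of 29.6% and 32.8% of the mean in GFP-hi and GFP-lo. Counting error is a lower limit here, since reads include PCR copies. Dusp1 and Spred1 also varied more within groups than 95.5% and 94.3% of tested genes, whereas Dusp4 exceeded 7.49%. The log2(RPKM + 1) scale understates the spread of so low a gene as Dusp4. As a share of the mean, its SD was 5.80% in GFP-hi and 4.43% in GFP-lo, near the 5.13% and 5.86% of Dusp11.

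**Figure D4:**
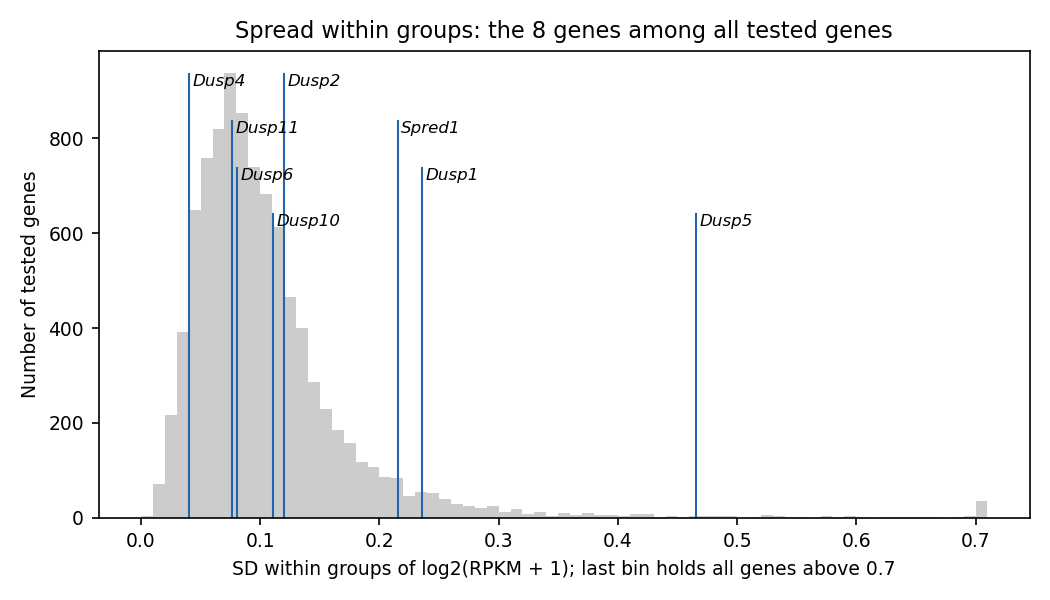
Histogram over the 9351 tested genes of the SD within groups of log2(RPKM + 1), with lines at the 8 genes. Dusp5 lies far in the upper tail at 0.47, Dusp1 and Spred1 lie at 0.24 and 0.22, and Dusp4 lies at 0.04. This scale understates the spread of a gene as low as Dusp4.

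The genes whose pattern over the 6 libraries was most like that of Dusp5 were Tubb2a, Tsc22d3 and Tagap1, with a Pearson r of 0.991, 0.990 and 0.983 on the log2(RPKM + 1) scale. They were picked as the 3 highest among 4177 genes at a mean of 10 RPKM or more, and with 6 libraries values of this size describe the pick only. Tsc22d3, a glucocorticoid-induced gene, stood at 89.6, 86.0 and 63.8 RPKM in GFP-hi and at 110, 91.3 and 72.9 RPKM in GFP-lo. Like Dusp5 it was lowest in GFP-hi 3 and GFP-lo 3 and highest in GFP-lo 1.

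Dusp4 (Entrez 319520, chr8:34807610-34819894) encodes another nuclear phosphatase, which is induced through ERK. It was the least abundant of the 8 genes, at 1.39, 1.28 and 1.24 RPKM in the GFP-hi libraries and at 1.07, 1.01 and 0.976 RPKM in the GFP-lo libraries. Each GFP-hi library lay above each GFP-lo library. Group means were 1.30 ± 0.0755 and 1.02 ± 0.0451 RPKM (SD, n = 3 each), a difference of 27.7%, the largest among the 8 genes by ratio of means. The log2 difference, which understates changes of so low a gene, was 0.19 (SE 0.072; 95% interval 0.023 to 0.35; adjusted p = 0.20 by limma). With a pseudocount of 0.1 it was 0.32 (adjusted p = 0.21). Dusp4 rested on about 108, 119 and 100 reads in GFP-hi and 105, 79.0 and 70.0 reads in GFP-lo, so that counting alone gives an error of 9.17% to 12% per library. That is larger than the SD of 5.80% and 4.43% of the mean seen within the groups.

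Dusp6 (Entrez 67603, chr10:99263231-99267489) encodes the cytoplasmic phosphatase that is selective for ERK and is widely used as a readout of ERK signalling. It stood at 20.1, 19.2 and 21.0 RPKM in GFP-hi and at 20.2, 17.6 and 18.6 RPKM in GFP-lo. The groups overlapped through GFP-lo 1, which lay above 2 of the GFP-hi libraries. The log2 difference was 0.09 (SE 0.066; adjusted p = 0.49 by limma). Its 95% interval on that scale, from -0.06 to 0.25, corresponds to 0.960 to 1.19 times the GFP-lo level of RPKM + 1.

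Dusp10 (Entrez 63953, chr1:184034381-184075636) encodes a phosphatase that prefers JNK and p38 over ERK. It stood at 34.4, 33.0 and 31.2 RPKM in GFP-hi and at 39.8, 32.7 and 34.7 RPKM in GFP-lo, with overlapping groups and the highest value in GFP-lo 1. The log2 difference was -0.11 (SE 0.079; 95% interval -0.29 to 0.07; adjusted p = 0.48 by limma).

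Dusp11 (Entrez 72102, chr6:85942268-85961732) belongs to the family by sequence, but its product is known to remove phosphates from the 5′ end of RNA and is not a MAP kinase phosphatase. It stood at 18.9, 20.9 and 20.2 RPKM in GFP-hi and at 19.7, 22.1 and 21.5 RPKM in GFP-lo, the narrowest range of the 8 genes, with its highest library at 1.17 times its lowest. The groups overlapped, and the log2 difference was -0.07 (SE 0.064; 95% interval -0.22 to 0.08; adjusted p = 0.59 by limma).

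Spred1 (Entrez 114715, chr2:117121071-117182279) encodes a membrane protein that brings neurofibromin, the Ras GTPase-activating protein, to Ras. It stood at 2.46, 2.36 and 3.05 RPKM in GFP-hi and at 1.96, 3.28 and 2.45 RPKM in GFP-lo, so that the GFP-lo libraries held both the lowest and the highest value. The log2 difference was 0.04 (SE 0.14; 95% interval -0.28 to 0.35; adjusted p = 0.92 by limma). It was -0.05 without GFP-hi 3 and -0.09 without GFP-lo 1.

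The other dual-specificity phosphatases and their relatives were taken from a list. Of 7 tested, none passed and 2 had an unadjusted p under 0.05 (limma), against 20.2% of all genes. The median log2 difference was 0.05. The most abundant, Dusp7, a cytoplasmic ERK phosphatase close to Dusp6, averaged 22.0 ± 0.802 RPKM in GFP-hi and 24.2 ± 0.807 in GFP-lo (SD, n = 3 each; log2 difference -0.13, adjusted p = 0.24 by limma). Its groups did not overlap. Ptpn7, a tyrosine phosphatase of blood cells that binds ERK and p38, had a log2 difference of 0.18 (adjusted p = 0.37). Dusp22, chosen after its values were seen, stood at 4.33, 4.21 and 4.93 RPKM in GFP-hi and at 2.50, 2.53 and 3.84 RPKM in GFP-lo. It dephosphorylates Lck and is known to restrain T-cell receptor signals. Its log2 difference of 0.49 (SE 0.13) did not pass (adjusted p = 0.083 by limma), and it passed in 2 of 15 alternatives, without GFP-lo 3 (0.64, adjusted p = 0.018) and with array quality weights (0.53, adjusted p = 0.021). In the other 13 it did not pass, with adjusted p values up to 0.27.

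Other brakes on Ras and ERK were tested with 10 genes, among them Spred2, Rasa1 and Rasal3, and none passed. An unadjusted p under 0.05 (limma) was found for 2, against 20.2% of all genes. Of the 10, 8 had a positive log2 difference, and the median was 0.09, against 0.02 over all genes tested. The share of positive differences over all genes was not counted, so the 8 have no background beside them. The most abundant were Rasal3, at 157 ± 4.38 RPKM in GFP-hi against 153 ± 5.42 in GFP-lo, and Rasa3, at 101 ± 6.89 against 99.1 ± 9.0 RPKM (SD, n = 3 each). Both encode Ras-family GTPase-activating proteins of lymphocytes. Spred2, the close relative of Spred1, was chosen after its values were seen. It stood at 2.08, 2.04 and 1.98 RPKM in GFP-hi and at 2.19, 2.45 and 2.49 RPKM in GFP-lo, with separate groups and a log2 difference of -0.15 (adjusted p = 0.26 by limma).

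The kinases that these proteins restrain were next compared. Of 18 genes of the ERK cascade none passed and 3 had an unadjusted p under 0.05 (limma), against 20.2% of all genes. Their median log2 difference was 0.03. Rasgrp1, the main activator of Ras in T cells, stood at 89.1, 78.1 and 85.9 RPKM in GFP-hi and at 73.6, 70.8 and 71.2 RPKM in GFP-lo. Its groups were separate, with a log2 difference of 0.23 (SE 0.062; adjusted p = 0.090 by limma). It passed in 2 of 16 alternatives, without GFP-hi 2 (0.28, adjusted p = 0.032) and with array quality weights (0.27, adjusted p = 0.0053). In the other 14 it did not pass, with adjusted p values up to 0.26. Rps6ka1, a kinase activated by ERK, had a log2 difference of 0.14 (adjusted p = 0.25). Of 22 genes of the JNK and p38 branches none passed and 5 had an unadjusted p under 0.05 (limma), against the same 20.2%. Their median was -0.0079. There Map3k3 had a log2 difference of -0.05 (adjusted p = 0.74) and Mapkapk2, a kinase activated by p38, of 0.18 (adjusted p = 0.20). The log2 differences of these 22 genes ran from -0.22 for Map3k5 to 0.59 for Gadd45g. Both were picked for their size and did not pass (adjusted p = 0.21 and 0.12 by limma).

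Of 16 tested transcripts from a list of those that ERK induces in many cells, 1 was higher and none lower, with a median of -0.15. That ERK induces each of them in these cells was not tested. The gene that passed was Elk3, which encodes an Ets factor that is itself a substrate of MAP kinases. It stood at 10.1, 9.87 and 9.10 RPKM in GFP-hi and at 7.80, 7.61 and 7.34 RPKM in GFP-lo, with separate groups and a log2 difference of 0.32 (SE 0.060; adjusted p = 0.029 by limma). The call was lost without any 1 of the 6 libraries (adjusted p from 0.053 to 0.11), without GFP-hi 2 and GFP-lo 2 together (0.15) and with trimmed mean scaling (0.057), while the difference was 0.28 to 0.36 in all 16 alternatives. Of the 16 transcripts, 7 were also on the handling list, and all 7 had a negative log2 difference. The lowest of the 16 was Junb, which is among these 7. It had separate groups and a log2 difference of -0.47, and did not pass (adjusted p = 0.080 by limma). Etv5, on the same list and named after its values were seen, was left out by the filter on low values. Its groups were separate, at 0.996 ± 0.0521 RPKM in GFP-hi against 0.632 ± 0.0411 RPKM in GFP-lo (SD, n = 3 each). Fos (574 ± 140 against 647 ± 114 RPKM, SD, n = 3 each) and Egr1 (30.8 ± 17.3 against 37.9 ± 20.1 RPKM, SD, n = 3 each), named for comparison with Dusp1, were highest in GFP-hi 2 and GFP-lo 2 as it was. On the handling list itself, Socs3 was lower in GFP-hi (log2 difference -0.93, adjusted p = 0.021 by limma), a call that was lost without GFP-hi 3, GFP-lo 1, GFP-lo 2 or GFP-lo 3 (adjusted p from 0.053 to 0.083).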

How the data were processed

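The authors deposited RPKM values, 1 column for each of the 6 libraries, per the file headers. Sorted cells gave full-length cDNA by SMART-seq v4 and Nextera XT libraries, per the labels' protocols. STAR and mm10 are named in the submitters' processing notes; the read counter, annotation and filter on listed genes were not given in the sources used here. Titles tied columns to samples, and the phenotype label gave the group. Replicate numbers follow record order and were not used to pair libraries. For 14 genes whose symbol had become a date, it was restored by Entrez ID.

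Genes averaging 1 RPKM or more were tested with limma 3.58.1 (R 4.3.3) on log2(RPKM + 1), lmFit and eBayes with trend, two-sided, with Benjamini-Hochberg adjustment over all 9351 genes. The fit was tested on simulated data. An adjusted p under 0.05 was called. Intervals are 95%. Depth was recovered from the RPKM step of 1 read in genes with 1 GENCODE M21 transcript (81.1% to 89.5% of low values lay at most 0.1 from a whole read; chance gives 20%). Members, lists, motifs and tests were chosen with earlier results of these data known. Named were the members, up to 6 called genes of each list or else its 2 most abundant, and the 3 genes most like the most variable member. Alternatives changed the pseudocount (0.1, 0.5), filter (none, 5), scaling, trend, weights, handling covariate and libraries. Figures used matplotlib 3.10.9.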

Additional observations from a re-analysis of the deposited data

How the results depend on the processing

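No paired analysis was made because the labels give the libraries no shared numbers, and whether numbers in record order pair them is not known. For Dusp1 both libraries numbered 2 were highest, and for Dusp5 both numbered 3 were lowest. The unpaired fit counts variation shared in this way as spread within groups. Over 16 alternatives, 6 of the 8 genes kept the sign of their log2 difference; Dusp5 (-0.50 to 0.0164 without 1 library, the positive value without GFP-hi replicate 3) and Spred1 (-0.0907 to 0.18 without 1 library) did not. Array quality weights called Dusp1 lower (-0.40, adjusted p = 0.036), the 1 member called in any fit. The cause was not tested. The number of genes called among all tested was 369; it was 202 with a mean RPKM of at least 5, where fewer genes were tested and Dusp4 and Spred1 were left out. It was 1282 with array quality weights, 809 with the handling covariate, 101 without both libraries numbered 2 and 133 to 315 without 1 library. Of the 5 pathway lists, 1 gene was higher and 0 lower. With array quality weights 9 were higher and 6 lower, with the handling covariate 3 and 3, without both libraries numbered 2, 0 and 1, and with trimmed mean scaling 0 and 0. Without 1 library 0 to 1 were higher and 0 to 1 lower. The small log2 differences of Map3k3 (-0.0826 to 0.0035 without 1 library), Rasal3 (-0.0119 with quantile normalization) and Rasa3 (-0.0135 with array quality weights, -0.0421 to 0.0879 without 1 library) changed sign. For Dusp4, counting error per library (9.17% to 12%) exceeded the SD within groups.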
